A study of Homo sapiens with 24 samples.

Results

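The genes described here encode the proteins of the cytosolic ribosome. They were chosen by symbol alone: RPL or RPS followed by a number, with the endings A, X, L, AL or L1 where present, together with RPLP0, RPLP1, RPLP2 and RPSA. This took 85 of the 58884 genes listed, 53 for proteins of the large subunit and 32 for proteins of the small subunit, and left out pseudogenes and mitochondrial ribosomal proteins. The study examined SETD2, a histone methyltransferase that acts along transcribed genes, in HEK293T, an established human embryonic kidney line. RNA was sequenced in 10 libraries that the authors deposited as 2 tables, called the first and the second batch here, with 2 libraries in each of 5 groups. The first batch held untreated wild type cells (WT) and cells in which both SETD2 alleles had been disrupted (KO). The second batch held KO cells again, KO cells transfected with tagged full-length SETD2 (SETD2 FL) and KO cells transfected with a tagged fragment of residues 1404 to 2564 (SETD2 C), both driven by the strong CMV promoter. The labels describe the KO cells as untreated, so that transfection itself and the protein expressed cannot be told apart in any comparison of SETD2 FL or SETD2 C with KO. The labels do not say that libraries of a group came from separate cultures, so p-values measure only the spread between these libraries, which may be technical.

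A ribosome carries one copy of most of these proteins, so that they are needed in near equal numbers, and their genes are among the most transcribed of any dividing cell. Most of their mRNAs start with a cytosine followed by a run of pyrimidines, the 5′ terminal oligopyrimidine (TOP) tract, through which mTORC1 and LARP1 control their translation and stability. A few of the genes have a paralog that is expressed at a low level or in particular tissues, such as RPL3L in striated muscle and RPL10L and RPL39L in testis.

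Values were TPM, which correct for transcript length and keep no record of sequencing depth. Between 24306 and 27104 genes had a TPM above 0 in a library. WT replicate 1 stood apart before any comparison: mitochondrially encoded genes held 23.2% of its TPM, against 14.1% in WT replicate 2 and 11.99% and 12.4% in the KO libraries of that batch. In the second batch these genes held 7.04% and 6.23% in KO, 10.95% and 7.79% in SETD2 FL, and 2.93% and 3.37% in SETD2 C. The SETD2 C libraries were thus the lowest, with no overlap with the other groups, and the part of this difference in the ribosomal protein results was not tested beyond the rescaling given beside them. All 5 markers of 293T cells (NEFL, NEFM, VIM, KRT8 and KRT18) were present in every library, with VIM the most abundant at 444 to 926 TPM. Of 10 markers of other cell types, at least 6 lay below 0.5 TPM in each library. Their summed TPM was 10.1 and 11.2 in WT, 14.8 and 14.3 in KO of the first batch, 10.2 and 10.2 in KO of the second, 11.54 and 13.3 in SETD2 FL, and 19.3 and 17.3 in SETD2 C. COL1A1 was the most abundant of them everywhere, reaching 12.1 TPM, while the leukocyte gene PTPRC stayed at or near 0.

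SETD2 RNA was measured first, since it bears on the labels. After scaling of each library by its median ratio to the others, it stood at 14.4 and 14.3 TPM in WT and at 15.3 and 15.7 TPM in the KO libraries of the first batch. In the second batch it stood at 12.4 and 12.7 TPM in KO, 459 and 424 TPM in SETD2 FL, and 1251 and 1183 TPM in SETD2 C. The transcript was therefore not lower in KO than in WT (log2 fold change of WT relative to KO -0.11, SE 0.08; limma with Benjamini-Hochberg adjustment, adjusted p = 0.408), which says nothing of the protein, and these libraries are called labelled KO below. Both transfected groups carried far more SETD2 RNA than the libraries labelled KO, by 5.08 and 6.54 on the log2 scale. The SETD2 value in SETD2 C exceeded that in SETD2 FL by 1.46 (SE 0.06). TPM divide by a transcript length that need not be that of a construct, above all of a fragment, so whether the constructs differed in RNA level was not tested.

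Start-site sequences show the feature that most of the ribosomal protein genes share and the choice by symbol did not use. RefSeq promoter entries (GRCh38.p14, 250 bases before to 50 after the start) existed for 68 of the 85 genes, with several starts for 11 of them, 84 promoters in all. A C at the first transcribed base followed by 4 bases that were all C or T occurred in 47 of these 84 promoters (56.0%), against 4.07% of 35116 promoters of all genes. The sequences of 10 genes, members with a called change and the paralogs and partners read beside them, are given with 20 bases before and 20 bases from the start, 5′ to 3′ on the transcribed strand, with the unbroken run of C and T from the first transcribed base in capitals. Where several starts were listed, the one with the longest run is shown. RPL10 (chrX:154398357-154398396, plus strand) and RPS6 (chr9:19380217-19380256, minus strand) are shown as widely expressed members with long runs.
RPL10: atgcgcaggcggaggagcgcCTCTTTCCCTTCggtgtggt
RPS6: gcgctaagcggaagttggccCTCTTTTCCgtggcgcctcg
Paralogs and their partners follow as pairs: RPL22 (chr1:6199576-6199615, minus strand) with RPL22L1 (chr3:170870176-170870215, minus strand), RPS27 (chr1:153990742-153990781, plus strand) with RPS27L (chr15:63157458-63157497, minus strand), and RPL26 (chr17:8383174-8383213, minus strand) with RPL26L1 (chr5:172958709-172958748, plus strand).
RPL22: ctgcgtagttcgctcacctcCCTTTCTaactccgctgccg
RPL22L1: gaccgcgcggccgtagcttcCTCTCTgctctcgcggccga
RPS27: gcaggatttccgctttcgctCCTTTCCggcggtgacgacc
RPS27L: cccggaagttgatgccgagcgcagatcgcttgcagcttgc
RPL26: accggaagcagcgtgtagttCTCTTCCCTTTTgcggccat
RPL26L1: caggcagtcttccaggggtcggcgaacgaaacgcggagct
The paralogs RPL36AL (chr14:49620607-49620646, minus strand) and RPL7L1 (chr6:42879596-42879635, plus strand) complete the set.
RPL36AL: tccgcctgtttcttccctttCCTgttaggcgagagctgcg
RPL7L1: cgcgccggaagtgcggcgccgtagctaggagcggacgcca
RPL22L1 shared the run with its partner, RPL36AL had a run of 3 bases, and RPS27L, RPL26L1 and RPL7L1 had none at any listed start. RPL39L and RPS15A were among the 17 genes without an entry. Of other motifs searched on both strands of the promoters, CCGGAA, the core of sites for ETS-family factors, was present in 52.4% of the ribosomal protein promoters and 17.2% of all promoters. GGGCGG was found in 54.8% against 45.0%, CACGTG in 5.95% against 7.26% and TATAAA in 8.33% against 11.5%. A match describes the letters only, and a promoter can hold several of them.

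As a group, the ribosomal protein genes took up a large part of the TPM of every library. Their summed TPM was 20.2% and 20.6% of the total in WT and 21.1% and 20.5% in the libraries labelled KO of the first batch, where the groups overlapped. In the second batch it was 32.3% and 32.9% in KO, 28.9% and 30.2% in SETD2 FL, and 31.7% and 30.6% in SETD2 C. Means of the 2 libraries were 32.6% ± 0.476 (SD) in KO, 29.6% ± 0.903 with the full-length construct and 31.1% ± 0.748 with the fragment, so both transfected groups lay below the libraries labelled KO and did not overlap them. Taken as a share of the TPM of all genes other than the mitochondrially encoded ones and SETD2, the members made up 34.7% and 35.1% in KO, 32.5% and 32.8% in SETD2 FL, and 32.7% and 31.7% in SETD2 C. On that denominator SETD2 FL and SETD2 C overlapped, and in the first batch WT stood at 26.3% and 23.9% against 23.9% and 23.5% in KO. The batches were normalized apart, and the gap between the KO libraries of the first and the second batch (mean 20.8% and 32.6%) was not tested.

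**Figure D1:**
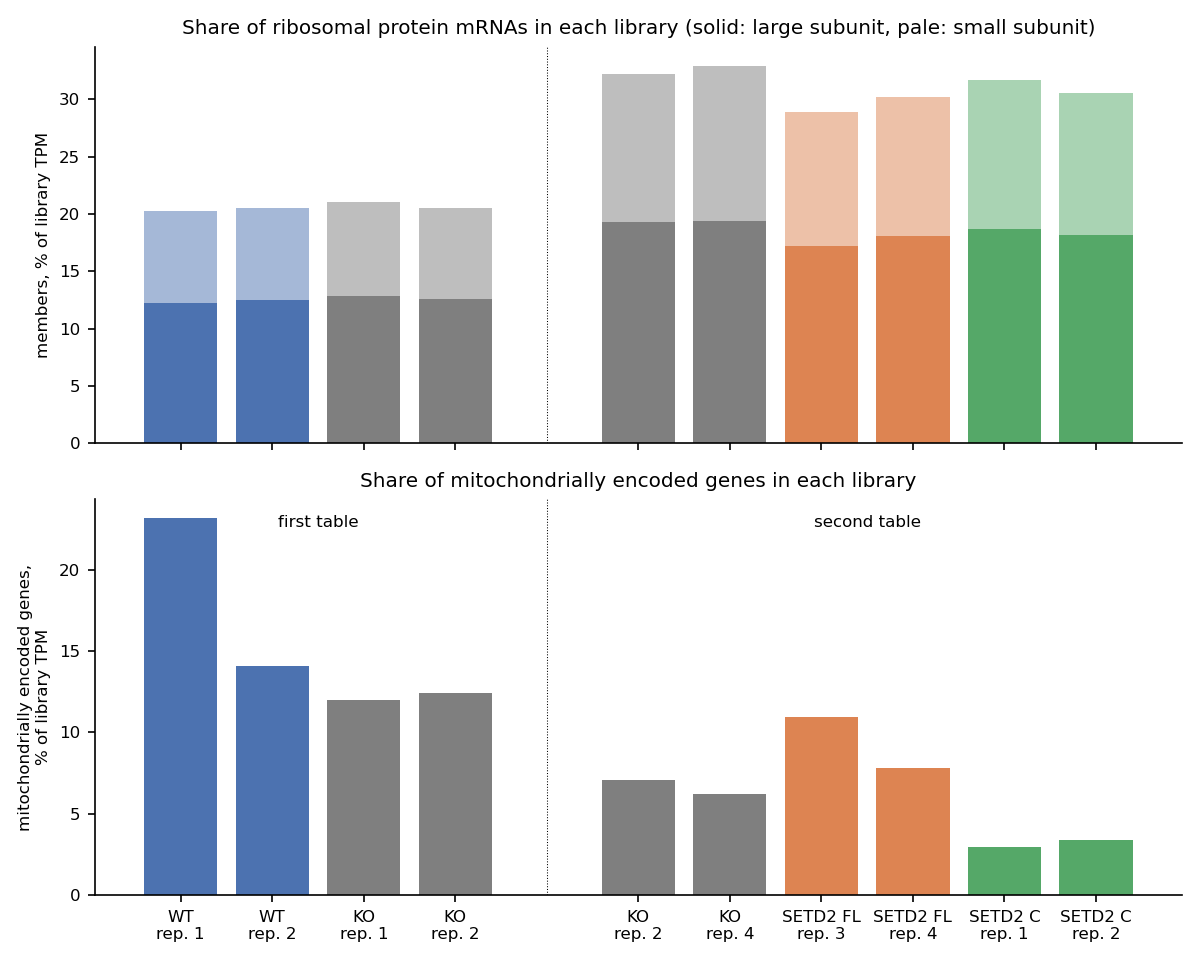
Share of each library's summed TPM (percent, vertical axis) held by the ribosomal protein genes and by the mitochondrially encoded genes, for the 2 libraries of each group in each batch. Ribosomal protein genes held 20.2% to 21.1% in the first batch and 28.9% to 32.9% in the second, and mitochondrially encoded genes ranged from 2.93% in SETD2 C to 23.2% in WT replicate 1.

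The median over the 85 genes of the mean TPM was 2084 in the first batch and 3516 in the second. RPS2 (9115 TPM) and RPL36A (8896) were highest in the first batch, and RPL39 (12477), RPS2 (10195) and RPS18 (8699) in the second. RPL10L, RPL3L and RPL39L were the lowest in both. Scaled TPM of RPL10L, the testis paralog of RPL10, was 0 to 0.13 and that of RPL3L, the muscle paralog of RPL3, was 0.05 to 0.64, so that neither passed the filter of 0.5 TPM in 2 libraries. The remaining 83 members were tested. Outside the paralogs the lowest member of the second batch was RPS26 (700 TPM), above the most abundant paralog RPL36AL (276 TPM, and 517 in the first batch). KO libraries differed between batches gene by gene: the ratio of the second to the first had a median of 1.57 over the 83 members, was above 1 for 73, and ran from 0.511 for RPL36AL and 0.648 for RPL11 to 3.33 for RPS18 and 3.32 for RPL39. This is a description of separately normalized tables, with no test.

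In the first batch WT was compared with the libraries labelled KO. RPL22L1, the paralog of the RNA-binding protein RPL22, was the only member that passed the test. Its scaled TPM was 293 and 250 in WT and 120 and 130 in the libraries labelled KO. Both WT values lay well above both others, with no overlap. RPL22L1 (ENSG00000163584; chr3:170864875-170870208, minus strand, 4 exons, GRCh38) was 2.16-fold higher in WT, a log2 fold change of 1.11 with SE 0.10 (limma with Benjamini-Hochberg adjustment over 14746 genes, adjusted p = 0.00295). The call was lost only without the expression filter (limma with Benjamini-Hochberg adjustment, adjusted p = 0.0527, range over its alternatives 5.10e-09 to 0.0527). RPL22, the partner (ENSG00000116251; chr1:6185020-6209389, minus strand), had scaled TPM of 879 and 779 in WT and 890 and 946 in the libraries labelled KO. It was lower in WT in both replicates, by less than the test could separate (-0.15, SE 0.10, adjusted p = 0.383 by limma with Benjamini-Hochberg adjustment). RPL22L1 made up 25.005% and 24.2% of the pair in WT and 11.9% and 12.1% in the libraries labelled KO. These shares leave out the pseudogenes of RPL22, which held 52.1% of the summed TPM of RPL22 and its pseudogenes in this batch.

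Over all 83 members tested, 1 was higher in WT and 0 were lower by limma at an adjusted p of at most 0.05, against 3.17% of all genes higher and 1.32% lower. RPL22L1 was also the single member with a fold change of at least 2, where 1.36% of all genes passed. At an unadjusted p under 0.05, 4 members differed (4.82%), RPL22L1, RPS6, RPS18 and RPL24, against 24.9% of all genes. The median log2 fold change of the members was 0.11, with 68 values above 0 and 15 below, against 0.01 for all genes, and it turned to -0.02 without scaling and to -0.03 after rescaling without the members. Those settings moved the median of all genes to -0.11 and -0.12, so that the members' median stayed above that of all genes by 0.09 in both. The gap was smaller under quantile normalization (0.053, with a member median of 0.03), after adjustment for transcript length (0.034, with a member median of 0.04) and without WT replicate 1 (0.0082), against 0.10 as reported. The median rested on WT replicate 1: without it the value was 0.01, and without WT replicate 2 it was 0.21. That of all genes was 0.00 and 0.01 in these fits. Under quantile normalization 3 members were called lower, against 203 of all 14746 genes. Large-subunit members had a median of 0.09 and small-subunit members 0.16, the first of which was -0.04 without scaling. After RPL22L1 the largest positive values were those of RPS15A (0.29, SE 0.16), RPS21 (0.29, SE 0.18) and RPS18 (0.28, SE 0.11). The largest negative ones were those of RPL38 (-0.20, SE 0.12), RPL11 (-0.19, SE 0.15), RPL22 and RPL36AL (-0.07, SE 0.09), and none of these 7 passed the test. RPS15A, for example, read 3209 and 2314 scaled TPM in WT against 2178 and 2267 in the libraries labelled KO, with WT replicate 1 alone far above the rest. The split of all genes called, 467 higher and 194 lower, became 359 and 410 without scaling and 347 and 379 after rescaling without the members.

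In the second batch, most ribosomal protein genes were lower in SETD2 C than in the libraries labelled KO, except under quantile normalization, where their median turned positive. RPL10, a large-subunit protein that joins late in assembly, led this group. RPL10 (ENSG00000147403; chrX:154389955-154409168, plus strand, 7 exons) had scaled TPM of 6579 and 6631 in KO, 5741 and 5864 in SETD2 FL, and 4531 and 4175 in SETD2 C. The 3 groups did not overlap and were ordered KO, SETD2 FL, SETD2 C. RPS6, the S6 kinase substrate (ENSG00000137154), had 3662 and 4066 in KO, 3418 and 3281 in SETD2 FL, and 2976 and 2909 in SETD2 C, again without overlap.

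By limma with Benjamini-Hochberg adjustment over 15933 genes, RPL10 was 1.52-fold lower in SETD2 C than in the libraries labelled KO (log2 fold change -0.60, SE 0.06, adjusted p = 0.000482), and RPS6 differed by -0.39 (SE 0.07, adjusted p = 0.00342). In all, 50 of 83 members fell (60.2%) and 2 rose (2.41%), where 15.1% of all genes were lower and 21.1% higher. No member reached a fold change of at least 2, which 4.06% of all genes did, and 60 of the 83 had an unadjusted p under 0.05 in the same limma fit, against 47.1% of all genes. In 68 members (81.9%) both SETD2 C libraries lay below both libraries labelled KO, against 30.8% of all genes. The members' median log2 fold change was -0.22, with 75 values below 0, and that of all genes was 0.05. It was -0.07 without scaling, -0.12 after rescaling without the mitochondrially encoded genes and SETD2, -0.10 after rescaling without the members, and 0.07 under quantile normalization. The median of all genes moved to 0.18, 0.13, 0.16 and -0.03 in these settings, so the members' median lay below it by -0.25, -0.26 and -0.26 and, under quantile normalization, above it by 0.09.

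The counts depended on the scaling in the same way. Lower against higher calls among the members were 50 against 2 as reported, 16 against 4 without scaling, 30 against 3 after rescaling without mitochondrially encoded genes and SETD2, 16 against 2 after rescaling without the members, and 7 against 14 under quantile normalization. For all genes the lower calls were 2405 against 3359 higher as reported, and 1117 against 5509, 1473 against 4581, 1233 against 4852 and 2786 against 2457 in those settings. RPL10 passed the test in every alternative, with log2 fold changes from -0.66 to -0.29, the smallest under quantile normalization, and adjusted p from 0.000193 to 0.0141 (limma with Benjamini-Hochberg adjustment). RPS6 lost the call under quantile normalization only, at -0.12 and adjusted p = 0.198 (range over its alternatives 0.00199 to 0.198). When 1 library was left out, the members' median ran from -0.27 to -0.19, where that of all genes ran from 0.03 to 0.05.

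**Figure D2:**
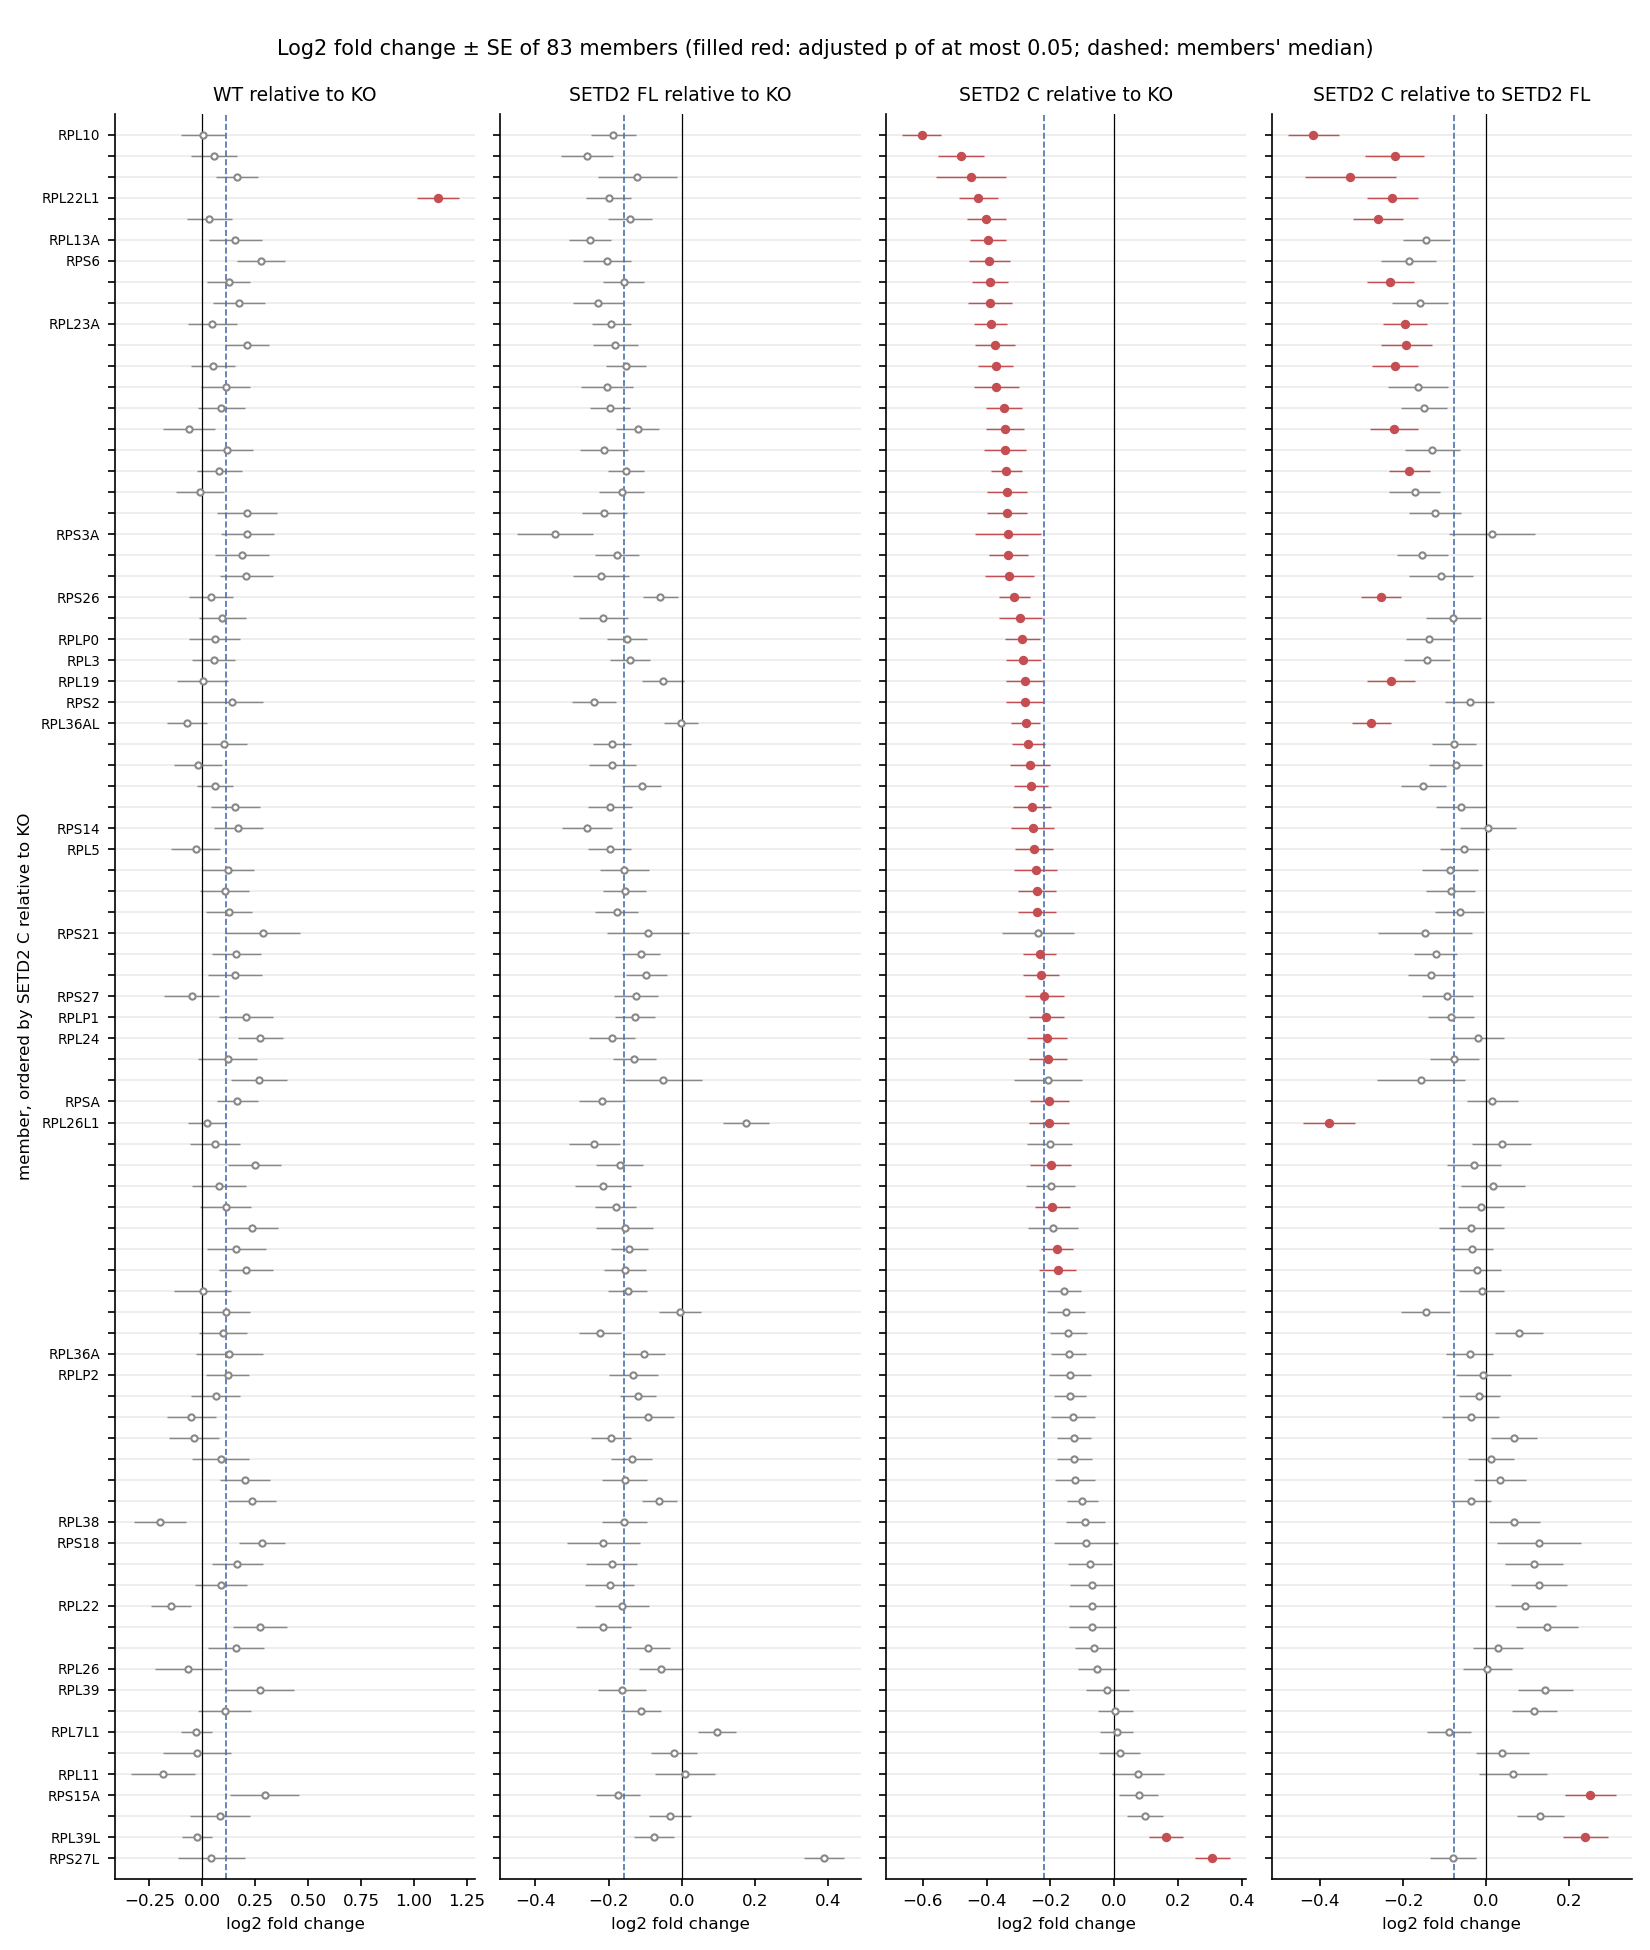
Log2 fold change (horizontal axis, with SE, a different range in each panel) of the 83 ribosomal protein genes tested in each of the 4 comparisons, ordered by SETD2 C relative to KO, with the symbols of some genes named in the text. Median-ratio scaling put 75 of 83 below 0 in SETD2 C relative to KO and 79 of 83 in SETD2 FL relative to KO, where quantile normalization put 27 and 62 below 0, and RPL22L1 stood alone at 1.11 in WT relative to KO.

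SETD2 FL relative to the libraries labelled KO gave small negative values for nearly all members, and none passed the test. The values in RPS3A, a small-subunit protein, were 5219 and 6507 scaled TPM in KO and 4810 and 4363 in SETD2 FL, the most negative log2 fold change of the comparison (-0.35, SE 0.10; limma with Benjamini-Hochberg adjustment, adjusted p = 0.194). RPS14 (-0.26) and RPL13A (-0.25) were also among the most negative, with adjusted p of 0.168 and 0.137 in the same limma test with Benjamini-Hochberg adjustment. By limma at an adjusted p of at most 0.05, 0 of 83 members were higher and 0 lower, against 0.176% and 0.0314% of all genes, and 0 reached a fold change of at least 2, against 0.0816%. At an unadjusted p under 0.05, 55 members differed (66.3%) against 15.9% of all genes, and 53 of them were lower (63.9%) against 7.22%. Both SETD2 FL libraries lay below both libraries labelled KO in 69 members (83.1%), against 23.4% of all genes. The median was -0.16 for the members and 0.01 for all genes, and it stayed negative under every scaling tried, from -0.20 after rescaling without the members to -0.06 under quantile normalization. All genes split 28 higher to 5 lower, and 52 to 39 after rescaling without the members. No alternative gave a lower call among the members.

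SETD2 C relative to SETD2 FL, both transfected, shares the SETD2 C libraries with the comparison with KO, and SETD2 FL relative to KO shares the other libraries of each, so their values are given side by side and not counted as independent. RPL10 had less RNA in SETD2 C than in the SETD2 FL libraries by limma with Benjamini-Hochberg adjustment (-0.42, SE 0.06, adjusted p = 0.00174), and under every alternative, with log2 fold changes from -0.48 to -0.20 and adjusted p from 0.000942 to 0.0446. RPL10 differed by -0.19 between SETD2 FL and the libraries labelled KO (limma with Benjamini-Hochberg adjustment, adjusted p = 0.222). RPS15A, a small-subunit protein (ENSG00000134419), had 2779 and 2635 scaled TPM in SETD2 FL, 3271 and 3167 in SETD2 C, and 3165 and 2943 in KO. It was thus higher in SETD2 C than in SETD2 FL, by 0.25 (SE 0.06; limma with Benjamini-Hochberg adjustment, adjusted p = 0.0144), while its value against the libraries labelled KO was 0.08 (adjusted p = 0.350 by the same test). Its call was lost without the filter, without the mean-variance trend, without SETD2 FL replicate 4 and without SETD2 C replicate 1 (limma, adjusted p = 0.0741 and 0.0665 for the last pair, range over its alternatives 0.00133 to 0.0797). Of 83 members, 15 were lower (18.1%) and 2 higher (2.41%), RPS15A and RPL39L, against 16.8% and 21.4% of all genes. Members called lower were 31 after adjustment for transcript length, 4 without the filter and 5 without the mean-variance trend. Over all genes 2646, 2097 and 2121 were called lower in these settings, against 2676 as reported. None reached a fold change of at least 2 (3.78% of all genes), and 29 had an unadjusted p under 0.05 (34.9%) by limma, against 48.8%. The members' median was -0.08 against 0.04 for all genes, and its sign turned without scaling (0.05), under quantile normalization (0.11) and after rescaling without the members (0.08). The median of all genes moved to 0.16, -0.02 and 0.19 in these settings, and lower against higher calls among the members to 2 against 10, 4 against 26 and 2 against 12. All genes split 3411 higher to 2676 lower as reported, 5192 to 1508 without scaling, 2700 to 3067 under quantile normalization and 5635 to 1250 after rescaling without the members. When 1 library was left out, the members' median ran from -0.09 to -0.05, where that of all genes ran from 0.03 to 0.04.

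**Figure D3:**
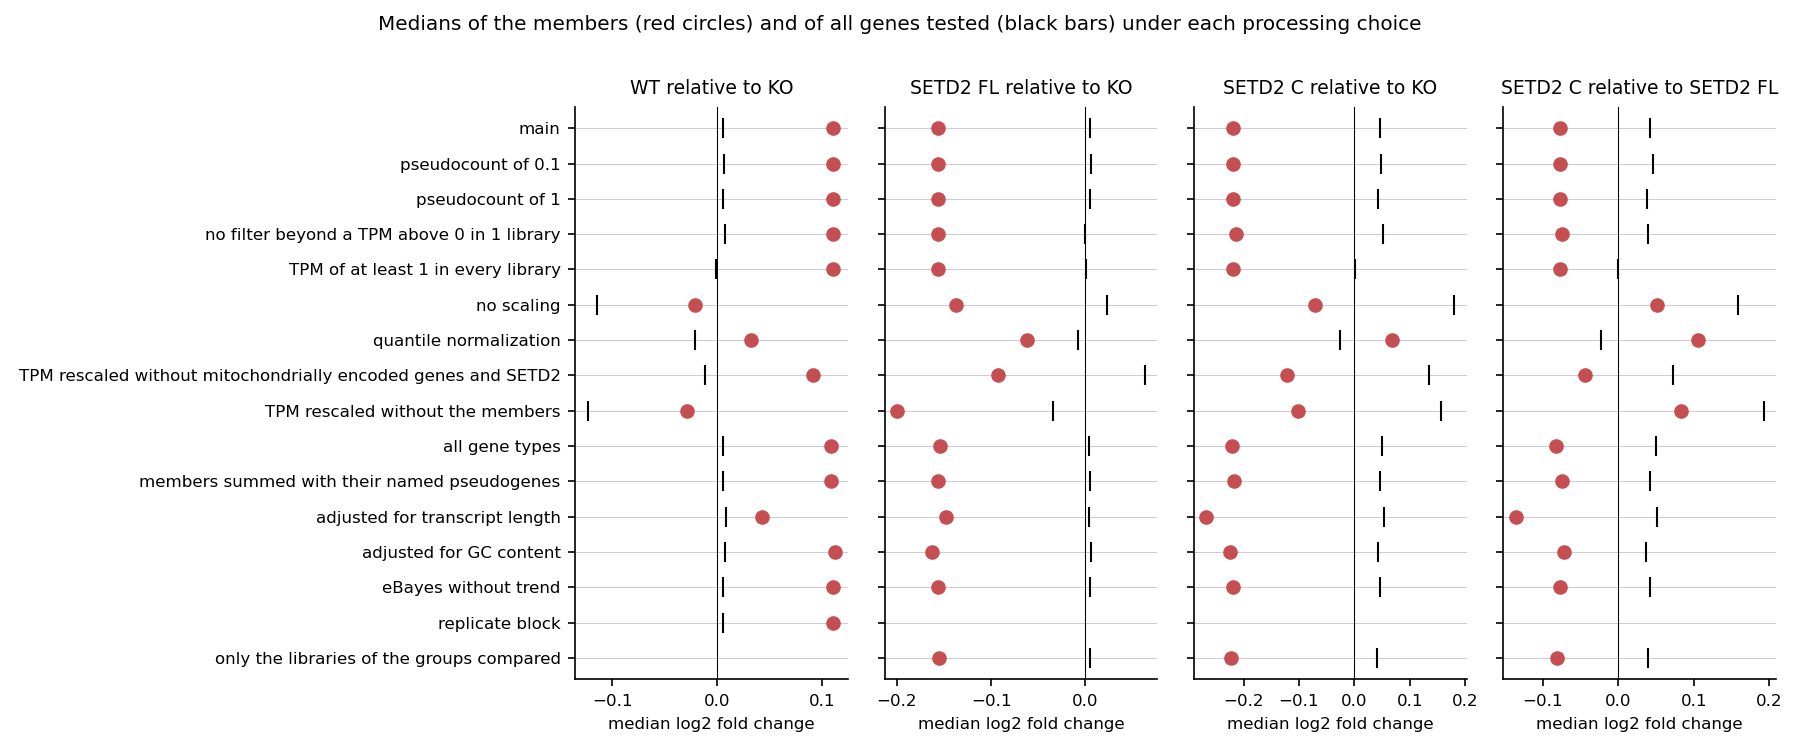
Median log2 fold change (horizontal axis) of the 83 ribosomal protein genes and of all genes tested, for each comparison as reported and under each way of processing. The median of the members crosses 0 in WT relative to KO without scaling (-0.02) and after rescaling without the members (-0.03), in SETD2 C relative to KO under quantile normalization (0.07), and in SETD2 C relative to SETD2 FL without scaling (0.05), under quantile normalization (0.11) and after rescaling without the members (0.08).

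The 6 paralogs with measurable RNA behaved differently from one another. RPS27L, a paralog of RPS27 and a known p53 target (ENSG00000185088; chr15:63125872-63158021, minus strand), had scaled TPM of 82.4 and 76.5 in KO, 105 and 103 in SETD2 FL, and 99.0 and 97.9 in SETD2 C. Both transfected groups lay above the libraries labelled KO with no overlap. It rose in SETD2 C by 0.31 (SE 0.06; limma with Benjamini-Hochberg adjustment, adjusted p = 0.00471, over its alternatives 0.25 to 0.46 with adjusted p 0.000614 to 0.0319). In SETD2 FL it differed by 0.39 (SE 0.06) and missed the threshold by limma with Benjamini-Hochberg adjustment (adjusted p = 0.0543), which it passed without scaling, after rescaling without mitochondrially encoded genes and SETD2 and with a minimum TPM of 1 in every library (adjusted p = 0.0371, 0.0299 and 0.0343, range over its alternatives 0.0299 to 0.222). RPS27, the partner, had 8040 and 7828 in KO, 7046 and 7513 in SETD2 FL, and 6698 and 6942 in SETD2 C. RPS27 was lower in SETD2 C than in the libraries labelled KO by -0.22 (SE 0.06; limma with Benjamini-Hochberg adjustment, adjusted p = 0.0261), which turned to 0.20 under quantile normalization, lost its call under every other scaling (-0.07 without scaling), without the filter, without the mean-variance trend and also without any single one of the 4 libraries (range of adjusted p over its alternatives 0.00602 to 0.492). RPS27L made up 1.02% and 0.968% of the pair in KO and 1.36% to 1.47% in the transfected libraries.

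RPL22L1 ran the other way in the second batch. It had 240 and 254 scaled TPM in KO, 224 and 206 in SETD2 FL, and 179 and 189 in SETD2 C. The low KO level of the first batch (120 and 130, against 293 and 250 in WT) was thus not seen in these KO libraries. Its KO TPM in the second batch was 1.82 times that in the first, where the median ratio of the members was 1.57. The batches were normalized apart, and this gap was not tested. Within the second batch RPL22L1 was lowest in SETD2 C, by -0.43 relative to the libraries labelled KO (SE 0.06; limma with Benjamini-Hochberg adjustment, adjusted p = 0.00193), and kept that call in every alternative (-0.47 to -0.28, adjusted p 0.00100 to 0.0158). Its difference between SETD2 C and SETD2 FL was -0.23 (limma with Benjamini-Hochberg adjustment, adjusted p = 0.0219), lost without SETD2 FL replicate 3 (adjusted p = 0.118) or SETD2 C replicate 1 (adjusted p = 0.110, and also without the filter or the mean-variance trend; range over its alternatives 0.0109 to 0.451). The value shrank to -0.10 without scaling, -0.15 under quantile normalization and -0.07 after rescaling without the members, and the call was lost in each. RPL22, with 1150 and 1097 in KO, 968 and 1041 in SETD2 FL, and 1003 and 1144 in SETD2 C, did not pass the test in any comparison. As a share of the pair, RPL22L1 was 17.3% and 18.8% in KO, 18.8% and 16.6% in SETD2 FL, and 15.1% and 14.2% in SETD2 C. The pseudogenes of RPL22 held 19.1% in this batch and 52.1% in the first, so the pair shares of the batches are not comparable.

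RPL39L, the paralog of the tunnel protein RPL39 (ENSG00000163923), had 43.4 and 43.6 scaled TPM in KO, 40.5 and 41.9 in SETD2 FL, and 48.6 and 48.7 in SETD2 C. SETD2 C was the highest group in every library. It rose by 0.16 relative to the libraries labelled KO (SE 0.05; limma with Benjamini-Hochberg adjustment, adjusted p = 0.0483), a call lost without any one of the 4 libraries (adjusted p 0.139 to 0.162 in those, 0.00536 to 0.188 over its alternatives), with all gene types, after adjustment for transcript length or GC content, with only the libraries compared and without the mean-variance trend, 9 of 18 settings in all. RPL39L was higher by 0.24 relative to SETD2 FL (SE 0.05; limma with Benjamini-Hochberg adjustment, adjusted p = 0.0109), a call lost after adjustment for transcript length and without SETD2 FL replicate 3 or SETD2 C replicate 2 (limma, adjusted p = 0.0593 and 0.0571, range 0.00166 to 0.0638). RPL39 itself, with 12774 and 13193 in KO, 11960 and 11240 in SETD2 FL, and 13204 and 12393 in SETD2 C, did not pass the test. RPL26L1 (ENSG00000037241) had 144 and 146 in KO, 173 and 155 in SETD2 FL, and 128 and 124 in SETD2 C. SETD2 C was lowest and SETD2 FL highest, without overlap. Its difference between SETD2 C and SETD2 FL was -0.38 (SE 0.06; limma with Benjamini-Hochberg adjustment, adjusted p = 0.00290), a call it kept in every alternative (-0.47 to -0.22, adjusted p 0.000811 to 0.0237). Relative to the libraries labelled KO it fell by 0.20 (limma with Benjamini-Hochberg adjustment, adjusted p = 0.0371), a call lost without any one of the 4 libraries (range over its alternatives 0.00898 to 0.496). It was also lost without the filter, without the mean-variance trend and under every other scaling, where the value was -0.06 without scaling, -0.13 under quantile normalization, -0.11 after rescaling without mitochondrially encoded genes and SETD2, and -0.09 after rescaling without the members. RPL26 had 5449 and 5129 in KO and 5087 and 5101 in SETD2 C, and did not pass.

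RPL36AL, the paralog of RPL36A (ENSG00000165502), had 291 and 297 scaled TPM in KO, 290 and 298 in SETD2 FL, and 241 and 244 in SETD2 C. KO and SETD2 FL coincided, and SETD2 C lay below both. Its log2 fold change was -0.28 relative to each of them (SE 0.05; limma with Benjamini-Hochberg adjustment, adjusted p = 0.00357 and 0.00317), and both calls were lost without scaling (-0.13 relative to KO, -0.15 relative to SETD2 FL) and after rescaling without the members (-0.16 and -0.12; ranges over the alternatives 0.00178 to 0.106 and 0.00110 to 0.194). RPL36A had 8557 and 8611 in KO and 7807 and 7742 in SETD2 C (-0.14, limma with Benjamini-Hochberg adjustment, adjusted p = 0.0790). RPL7L1 read 105 and 107 in KO, 112 and 115 in SETD2 FL, and 104 and 110 in SETD2 C, and did not pass. In the first batch none of these 5 paralogs passed: their log2 fold changes in WT relative to the libraries labelled KO ran from -0.07 for RPL36AL to 0.04 for RPS27L. Together, 2 of the 6 paralogs rose and 3 fell in SETD2 C against the libraries labelled KO, and 3 of the 8 partners fell (RPL10, RPL3 and RPS27), where 15.1% of all genes were lower and 21.1% higher. RPL3 and RPS27 turned positive under quantile normalization, and RPL3 also lost its call without the filter, without scaling (-0.14) and after rescaling without the members (-0.17).

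**Figure D4:**
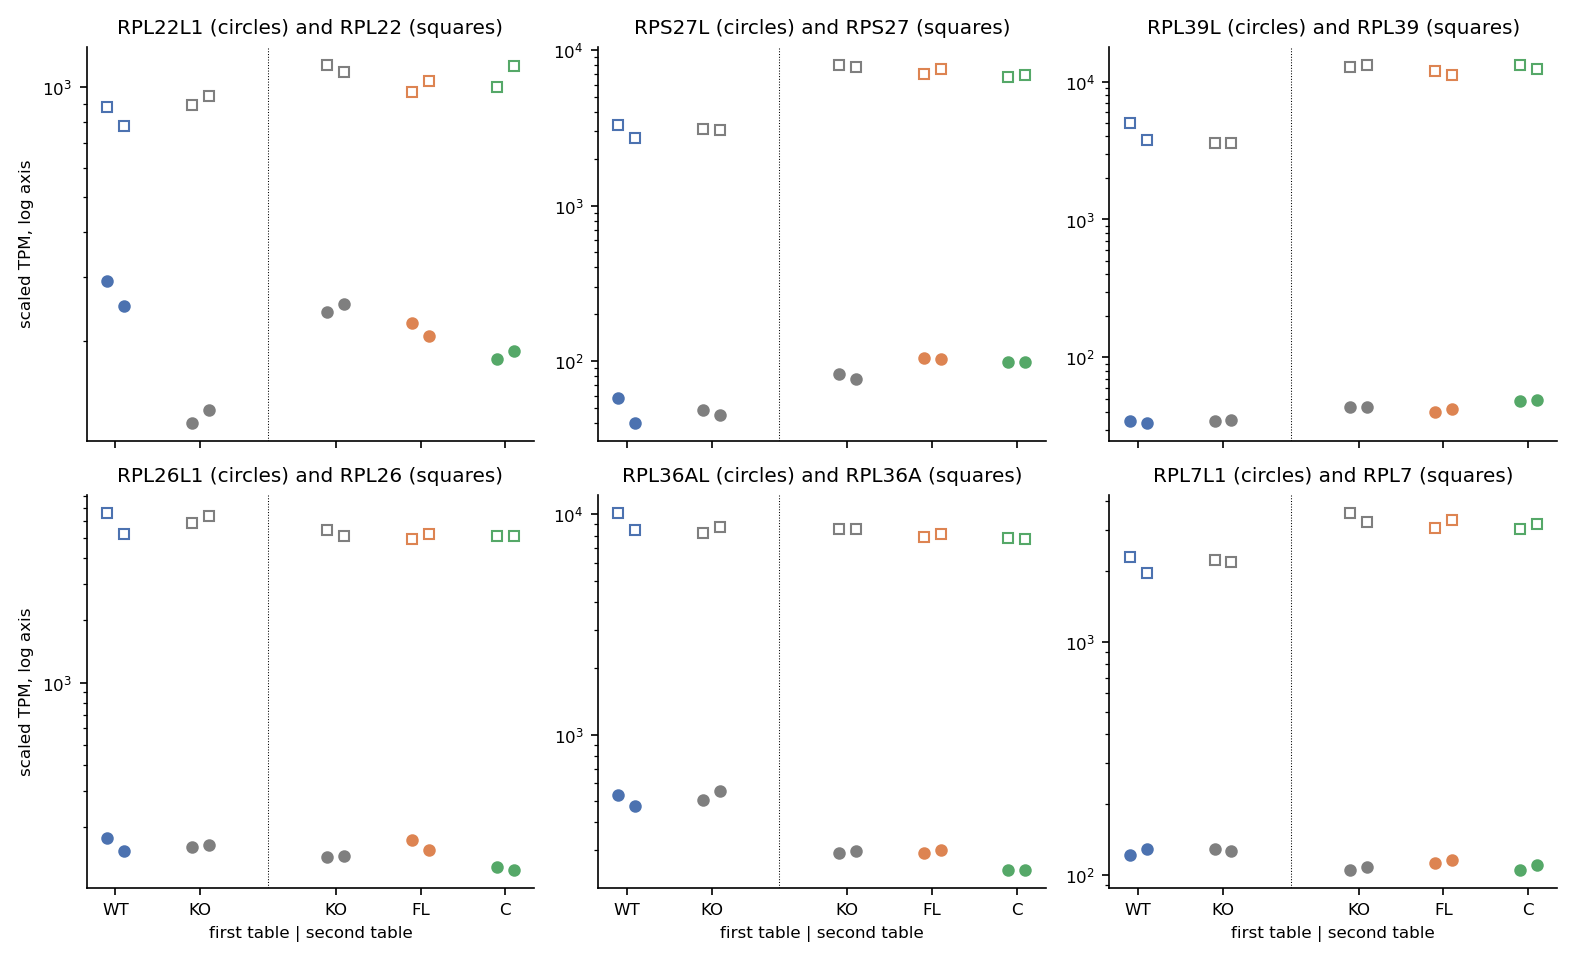
Scaled TPM (log axis) of 6 paralogs (circles) and their partners (squares) in each of the 10 libraries, grouped by batch and group. RPL22L1 stood at 250 to 293 in WT against 120 to 130 in the libraries labelled KO of the first batch, and each paralog lay below its partner in every library.

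Members of the 2 subunits were also read apart, with no test of their difference. In SETD2 C against the libraries labelled KO, 30 of 51 large-subunit members fell and 1 rose, with a median of -0.21, and 20 of 32 small-subunit members fell and 1 rose, with a median of -0.24. Of all genes, 15.1% were lower and 21.1% higher there. Quantile normalization turned the subunit medians to 0.06 and 0.09. In SETD2 FL relative to KO the medians were -0.16 and -0.17, and stayed negative under each scaling. In SETD2 C relative to SETD2 FL, 12 large-subunit and 3 small-subunit members were lower and 1 of each was higher by limma, where 16.8% of all genes were lower and 21.4% higher, and the medians of -0.08 and -0.07 turned to 0.05 and 0.06 without scaling, 0.10 and 0.11 under quantile normalization, and 0.08 and 0.09 after rescaling without the members. The median of all genes was 0.16, -0.02 and 0.19 in these settings. The P stalk, which recruits the GTPases of translation, comprises RPLP0, RPLP1 and RPLP2. RPLP0 had 4479 and 4527 scaled TPM in KO, 3975 and 4144 in SETD2 FL, and 3754 and 3625 in SETD2 C, in that order without overlap. RPLP0 and RPLP1 fell in SETD2 C against the libraries labelled KO, by 0.29 and 0.21 on the log2 scale (limma with Benjamini-Hochberg adjustment, adjusted p = 0.00589 and 0.0189), but turned to 0.08 and 0.15 under quantile normalization, and RPLP2 (-0.14) did not pass (adjusted p = 0.135). RPLP1 lost its call without KO replicate 2, KO replicate 4 or SETD2 C replicate 2 (limma, adjusted p = 0.0610, 0.0871 and 0.10045). Without scaling and after rescaling without the members both lost their calls, RPLP0 at -0.14 and -0.17 and RPLP1 at -0.06 and -0.10. Both also lost them without the filter, and RPLP1 without the mean-variance trend and after rescaling without mitochondrially encoded genes and SETD2 (-0.12). The ranges over the alternatives were 0.00382 to 0.332 for RPLP0 and 0.0102 to 0.440 for RPLP1.

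RPL5 and RPL11, which bind 5S rRNA and can also bind MDM2, were read one by one. RPL5 had 4649 and 5037 scaled TPM in KO, 4185 and 4256 in SETD2 FL, and 4082 and 4056 in SETD2 C, with KO above the rest. RPL11 had 3508 and 2973 in KO, 3146 and 3359 in SETD2 FL, and 3414 and 3388 in SETD2 C, where KO overlapped SETD2 FL and SETD2 C and both SETD2 C values lay above both of SETD2 FL. RPL5 was lower in SETD2 C by -0.25 (limma with Benjamini-Hochberg adjustment, adjusted p = 0.0142), turned to 0.05 under quantile normalization, and lost its call without the filter, without scaling (-0.10), after either rescaling (-0.15 without mitochondrially encoded genes and SETD2, -0.13 without the members), and without KO replicate 4 or SETD2 C replicate 2 (adjusted p = 0.0851 and 0.0631, range over its alternatives 0.00838 to 0.543). RPL11 stood at 0.07 (SE 0.08, limma with Benjamini-Hochberg adjustment, adjusted p = 0.504). RPSA, a small-subunit protein also known as a laminin-binding protein, had 3081 and 3358 in KO, 2749 and 2782 in SETD2 FL, and 2870 and 2719 in SETD2 C. It was lower in SETD2 C by -0.20 (limma with Benjamini-Hochberg adjustment, adjusted p = 0.0356), 0.09 under quantile normalization, and lost its call under every other scaling (-0.06 without scaling, -0.11 and -0.09 after rescaling without mitochondrially encoded genes and SETD2 or without the members), with no filter, all gene types or no mean-variance trend, and without KO replicate 4, SETD2 C replicate 1 or SETD2 C replicate 2 (adjusted p = 0.186, 0.0564 and 0.170, range 0.0204 to 0.555). Of 7 proteins at the rim of the exit tunnel, 2 fell in SETD2 C, RPL19 and RPL23A, named here after their values were seen. Among all genes 15.1% were lower there, and 60.2% of all members. The median of the 7 was -0.07, which was above 0 under all 4 other scalings. That of all genes was 0.05 as reported and -0.03 to 0.18 under those. Whether these 2 calls held under the alternatives is not reported. Of 18 genes mutated in Diamond-Blackfan anaemia, an inherited failure of red cell production, 7 fell in SETD2 C and 0 rose by limma, where 60.2% of all members and 15.1% of all genes were lower (median -0.20, turning to 0.10 under quantile normalization), while in WT relative to KO and in SETD2 FL relative to KO none passed. Among the most abundant members, RPS2 was lower in SETD2 C (-0.28, SE 0.06; limma with Benjamini-Hochberg adjustment, adjusted p = 0.00928) but 0.24 under quantile normalization, and lost its call without SETD2 C replicate 2 (adjusted p = 0.0515), without the filter, without scaling (-0.13, adjusted p = 0.186) and after rescaling without the members (-0.16, adjusted p = 0.183, range over its alternatives 0.00534 to 0.186). RPS18, RPL36A and RPL39 did not pass.

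Members with the pyrimidine run at a listed start and members without it were set side by side, and no test of their difference was made. In SETD2 C against the libraries labelled KO the median was -0.21 for the 47 with the run, of which 27 fell, and -0.23 for the 20 tested without it, of which 12 fell and 1 rose, where 15.1% of all genes were lower, and quantile normalization turned these medians to 0.09 and 0.04. In SETD2 C relative to SETD2 FL the medians were -0.04 with the run and -0.12 without it, with 5 of 47 and 5 of 20 called lower by limma against 16.8% of all genes, and turned to 0.09 and 0.01 without scaling, 0.16 and 0.02 under quantile normalization, and 0.12 and 0.04 after rescaling without the members. The median of all genes was 0.16, -0.02 and 0.19 in these settings. In SETD2 FL relative to KO the medians with and without the run were -0.16 and -0.15, negative under every scaling. In WT relative to KO they were 0.13 and 0.09, and turned to -0.00 and -0.04 without scaling and to -0.01 and -0.05 after rescaling without the members. There the median of all genes was -0.11 and -0.12. Across the 77 members without the paralogs, the log2 fold change in SETD2 C relative to KO had a Spearman correlation of -0.31 with the GC content of the transcript, where across all 15933 genes it was -0.12. With transcript length it was -0.22 across the members and -0.04 across all genes. These correlations describe genes of the same libraries, which are not independent.

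Genes of the same pathway outside the name patterns were read from lists of known components, beside which 15.1% of all genes were lower and 21.1% higher in SETD2 C relative to KO. FAU and RACK1, which encode ribosomal proteins under other symbols, fell in SETD2 C against the libraries labelled KO, by 0.29 and 0.26 on the log2 scale (limma with Benjamini-Hochberg adjustment, adjusted p = 0.00542 and 0.0115), with RACK1 at 0.02 under quantile normalization and neither called without scaling, under quantile normalization or after rescaling without the members. RACK1 also lost the call without the filter, after rescaling without mitochondrially encoded genes and SETD2, without KO replicate 2 (limma, adjusted p = 0.0658) and without SETD2 C replicate 2 (adjusted p = 0.0654), and the ranges over the alternatives were 0.00124 to 0.236 for FAU and 0.00770 to 0.815 for RACK1. Of 15 translation factors and other TOP mRNAs, 10 fell and 0 rose by limma (median -0.22), led by the elongation factor subunits EEF1B2 (-0.64) and EEF1D (-0.49) and the initiation factor subunit EIF3L (-0.47). EEF1B2 had scaled TPM of 1521 and 1633 in KO, 1399 and 1345 in SETD2 FL, and 990 and 1029 in SETD2 C, without overlap. Of 67 ribosome biogenesis factors, 45 fell and 2 rose, with a median of -0.30. UTP20 (-0.80), RRS1 (-0.80) and NOL6 (-0.70), all needed to process or assemble pre-ribosomes, had the most negative values (limma with Benjamini-Hochberg adjustment, adjusted p = 0.000791, 0.000591 and 0.000713). RRS1, for one, had 21.0 and 21.4 in KO, 21.6 and 24.0 in SETD2 FL, and 12.8 and 11.3 in SETD2 C. These 3 genes and the 3 translation factors named kept their calls in every alternative.

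Among 15 genes of RNA polymerase I and its factors, 6 fell and 1 rose (median -0.19): CD3EAP by -0.61, POLR1A by -0.48 and, upward, TAF1D by 0.47. Of 7 ribosomal protein chaperones 1 fell, GRWD1, the chaperone of RPL3 (-0.46), a count near the 15.1% of all genes called lower. Of 10 genes of mTORC1, LARP1 and MYC, which control ribosomal protein synthesis, 8 fell and 0 rose by limma (median -0.43). The list was not sorted by whether a gene raises or lowers that synthesis, so its median is no measure of pathway activity. MYC had scaled TPM of 300 and 305 in KO, 255 and 283 in SETD2 FL, and 184 and 174 in SETD2 C. MYC fell by 0.76 on the log2 scale (limma with Benjamini-Hochberg adjustment, adjusted p = 0.000202), EIF4EBP1 by 0.65 and AKT1S1 by 0.61, and these calls held in every alternative. The lists of biogenesis factors, TOP mRNAs, RNA polymerase I and mTORC1 kept a negative median under each scaling tried, and the chaperones did not (-0.11 as reported, 0.04 without scaling). Without scaling the median of all genes was 0.18, above that of the chaperones. Relative to SETD2 FL, SETD2 C gave 48 lower and 1 higher among the biogenesis factors (median -0.30), 6 lower among the TOP mRNAs (median -0.06, or 0.07 without scaling), 8 lower in the mTORC1 list (median -0.34) and 6 lower and 1 higher in the RNA polymerase I list (median -0.19), where 16.8% of all genes were lower and 21.4% higher. Without scaling the median of all genes was 0.16 there. Of the 7 chaperones 2 were lower relative to SETD2 FL, GRWD1 and PDCD2 (median of the list -0.16). PDCD2 kept its call in 8 of 18 settings. In SETD2 FL relative to the libraries labelled KO none of these genes was called by limma, and the medians were 0.09 for biogenesis factors, -0.12 for TOP mRNAs, 0.06 for RNA polymerase I, 0.07 for the chaperones and -0.00 for the mTORC1 list. In WT relative to the libraries labelled KO, NOC2L alone was called, 1 of the 67 biogenesis factors, a count near the 1.32% of all genes called lower. It was lower by -0.37 (limma with Benjamini-Hochberg adjustment, adjusted p = 0.0495), and it lost the call without WT replicate 1, KO replicate 1 or KO replicate 2. NOC2L lost it in 9 of 18 settings, the others being a pseudocount of 0.1, no filter, quantile normalization, rescaling without mitochondrially encoded genes and SETD2, all gene types and no mean-variance trend. The biogenesis list had a median of -0.16 there, against 0.11 for the ribosomal protein genes, a value that turned to -0.02 without scaling and to -0.03 after rescaling without the members. The median of all genes was -0.11 and -0.12 in these settings.

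**Figure D5:**
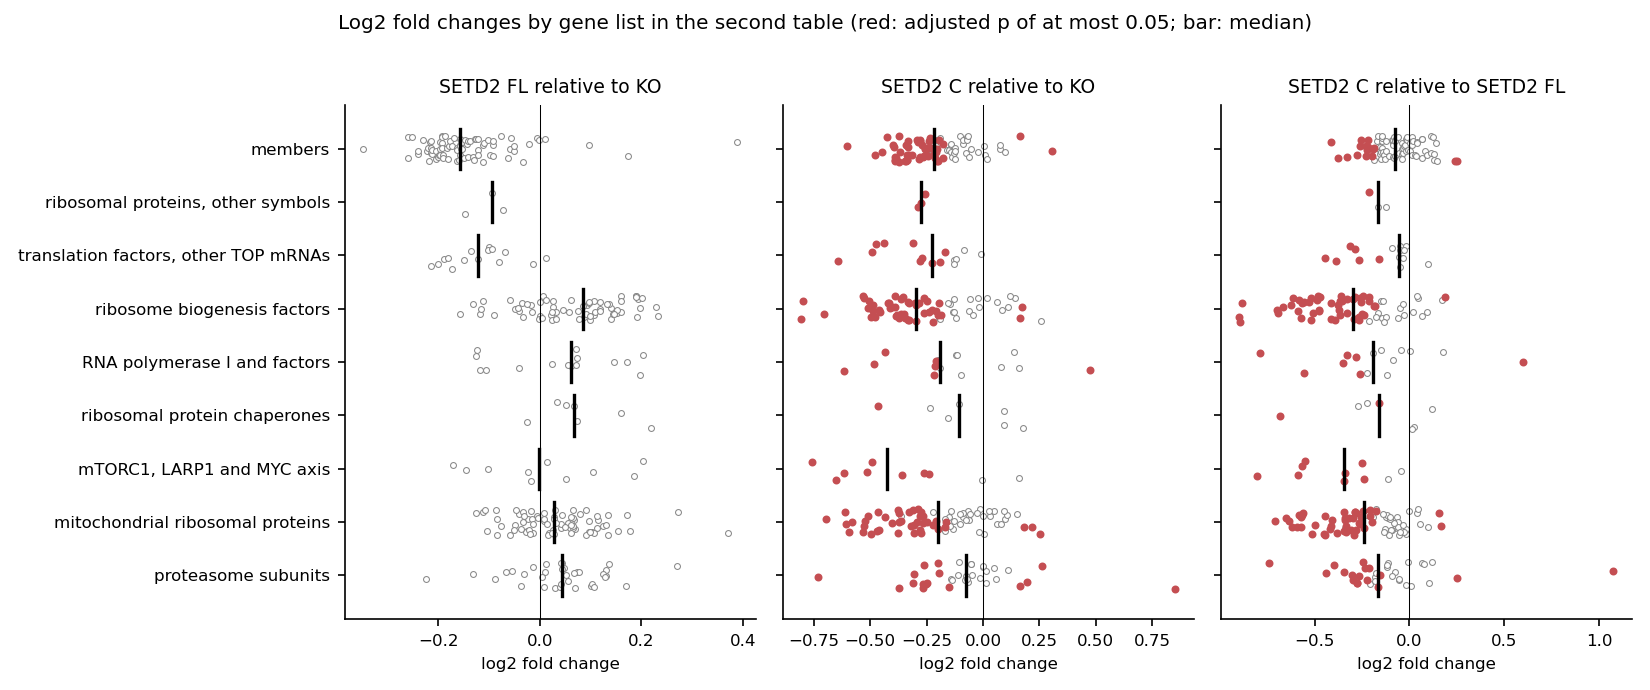
Log2 fold change (horizontal axis) of the genes of each list in the 3 comparisons of the second batch, with the median marked. In SETD2 C relative to KO the medians were -0.22 for the ribosomal protein genes (0.07 under quantile normalization), -0.30 for biogenesis factors and -0.43 for the mTORC1, LARP1 and MYC list (both negative under every scaling).

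Mitochondrial ribosomal proteins and proteasome subunits were compared as other large sets of co-expressed genes, by name pattern. In SETD2 C against the libraries labelled KO, 39 of 77 mitochondrial ribosomal proteins were lower and 3 higher (median -0.20, negative under every scaling), and 12 of 35 proteasome subunits were lower and 4 higher (median -0.08, but 0.07 without scaling), where 15.1% of all genes were lower and 21.1% higher. Without scaling the median of all genes was 0.18 there. In SETD2 FL relative to KO both sets had 0 calls by limma, and medians of 0.03 and 0.04 where the cytosolic ribosomal protein genes had -0.16. The median of the mitochondrial set turned to -0.01 after rescaling without the cytosolic members, where that of all genes was -0.03. In SETD2 C relative to SETD2 FL the mitochondrial set had 42 lower and 2 higher (median -0.24), where 16.8% of all genes were lower and 21.4% higher. The 35 proteasome subunits had 15 lower and 2 higher there (median -0.16). In WT relative to KO the medians were -0.05 for the mitochondrial set and -0.14 for the 36 proteasome subunits tested. The first had 2 lower and 0 higher and the second 4 lower and 1 higher, where 1.32% of all genes were lower and 3.17% higher. No test of these differences between sets was made.

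Markers also moved in SETD2 C relative to KO, where 21.1% of all genes were higher. Of the 5 markers of 293T cells, 4 rose in SETD2 C against the libraries labelled KO, KRT8 by 1.61, NEFL by 1.22 and NEFM by 1.20 on the log2 scale (limma with Benjamini-Hochberg adjustment), and their summed TPM was 1550 and 1628 in SETD2 C against 1086 and 1084 in KO and 914 and 1042 in SETD2 FL. The markers of other cell types that passed the filter were also higher in SETD2 C, 4 of 4 by limma (1 under quantile normalization), of which APOA1 reached the filter only in SETD2 C, so that its entry into the test depended on that group. Relative to SETD2 FL 2 of these 4 were higher (0 under quantile normalization), against 21.4% of all genes. In WT relative to KO, NEFL (-0.44) and KRT18 (-0.41) were lower, both calls lost without WT replicate 1, KO replicate 1 or KO replicate 2, without the filter and without the mean-variance trend. Of all genes 1.32% were lower in WT relative to KO. The part of the markers in the ribosomal protein results was not tested.

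Near-identical pseudogenes share reads with the members, and the estimated TPM of both is uncertain where they do. Pseudogenes of RPL22 held 52.1% of the summed TPM of gene and pseudogenes in the first batch and 19.1% in the second, those of RPL23A 35.8% and 7.58%, and those of RPL39 18.5% and 15.2%. RPL22P1 had 801 and 869 TPM in WT, 954 and 1083 in KO of the first batch, and 219 to 269 in the second. RPL39P3 had 1440 and 1831 TPM in KO of the second batch, 2237 and 2120 in SETD2 FL, and 1745 and 3986 in SETD2 C, with the SETD2 C libraries far apart. Summing each member with its named pseudogenes left the medians at 0.11, -0.16, -0.22 and -0.08 in the 4 comparisons. Transcripts that read through from a member into its neighbour stayed low, from 2.87 TPM for RPL36A-HNRNPH2 to 32.5 TPM for RPS10-NUDT3.

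These values come from 2 libraries per group of 1 cell line, and the libraries labelled KO did not have less SETD2 RNA than WT, which does not show that SETD2 protein was present. The libraries of the second batch differed in transfection as well as in construct, and the SETD2 TPM differed between SETD2 FL and SETD2 C. The sign of several small shifts shared by the ribosomal protein genes depended on the scaling. Relative to the median of all genes, that of the members kept its side under every scaling except quantile normalization. Quantile normalization turned this difference from -0.26 to 0.09 in SETD2 C relative to KO. In SETD2 C relative to SETD2 FL it turned the difference from -0.12 to 0.13, and why was not tested. TPM are shares, so absolute RNA per cell was not measured, and fewer cells of a type and less RNA per cell cannot be told apart. Ribosomal proteins, ribosome number and translation were not measured.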

How the data were processed

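The TPM values were made by the authors before they were deposited, with bcl2fastq 2.18, STAR 2.6.1c and RSEM 1.3.0 on hg38 with Ensembl 96 gene models. The authors tested counts with edgeR, and those counts were not used here. Each batch was analysed within itself. Libraries were scaled by the median of ratios, and log2(scaled TPM + 0.5) entered the linear models of limma 3.58.1 (R 4.3.3; functions lmFit and contrasts.fit, then eBayes with a mean-variance trend, two-sided), with the 6 libraries of the second batch in 1 fit. Genes were protein coding or lncRNA in GENCODE 44 and reached 0.5 TPM in 2 or more libraries. Of 58884 genes, 58472 shared an identifier with the annotation, 31 more were matched through the symbol and 381 were unmatched. P-values were adjusted by the Benjamini-Hochberg method over all genes tested, and a call is an adjusted p of at most 0.05. Tables and figures were made with python 3.11.15, pandas 2.3.3, numpy 2.4.6, matplotlib 3.10.9 and version 1.17.8 of the R package for reading tables.

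Genes were named by a rule of size or membership: SETD2, the paralogs and their partners, the P stalk, RPL5, RPL11, RPS6 and RPSA, the 4 largest positive and negative members of a comparison, the 3 highest and lowest members by mean TPM, up to 3 called genes of each other list, and the 3 members with the highest pseudogene share. The members and lists were chosen with earlier results of these data known. ChIP and splicing data of the study were not analysed here. Some genes that the naming rule would include are not reported here.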

Additional observations from a re-analysis of the deposited data

How the results depend on the processing

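The counts and medians of the members, and many of the gene results, were computed again under other choices. SETD2 and several genes that did not pass, such as RPL22, RPL11 and RPS3A, are not among them. In WT relative to KO, members called higher (1 as reported) were 0 when the filter only asked for a nonzero TPM, against 66 of all 23684 genes. Members called lower were 3 under quantile normalization, against 203 of all 14746 genes. The median was -0.021 with no scaling and -0.029 with TPM rescaled without the members, and 0.011 (without WT replicate 1) to 0.21 when a library was left out. With replicate number as a block, which the libraries share only as a number (correlation of deviations 0.147), 827 genes were higher and 442 lower, the members kept 1 higher and 0 lower, and RPL22L1 had adjusted p = 0.00354 by limma with Benjamini-Hochberg adjustment. In SETD2 FL relative to KO, 1 member was higher when every library had to reach 1 TPM, with no scaling, and with TPM rescaled without mitochondrially encoded genes and SETD2. Over all genes 27, 47 and 57 were called higher in these settings. The median was -0.061 under quantile normalization, -0.093 rescaled without mitochondrially encoded genes and SETD2, and -0.20 rescaled without the members. In SETD2 C relative to KO, members called higher (2) were 4 with no scaling and 14 under quantile normalization. They were 1 with all gene types, adjusted for transcript length, adjusted for GC content, with only the libraries of the groups compared and in eBayes without trend. Over all genes 5509, 2457, 3071, 3435, 3312, 3284 and 3101 were called higher in these settings. Members called lower (50) were 19 with no filter, 16 with no scaling, 7 under quantile normalization, 30 rescaled without mitochondrially encoded genes and SETD2, 16 rescaled without the members, and 25 to 43 when a library was left out, with 27 without KO replicate 4 and 25 without SETD2 C replicate 2. The median was -0.070 with no scaling, 0.068 under quantile normalization, -0.12 rescaled without mitochondrially encoded genes and SETD2, -0.10 rescaled without the members, -0.27 adjusted for transcript length, and -0.27 to -0.19 when a library was left out. Under quantile normalization RPLP0 turned to 0.078, RPL3 to 0.038, RPS2 to 0.24, RPL5 to 0.052, RPS27 to 0.20, RPLP1 to 0.15, RPSA to 0.087 and RACK1 to 0.024. In SETD2 C relative to SETD2 FL, members called higher (2) were 1 with no filter, 10 with no scaling, 26 under quantile normalization, 12 rescaled without the members, and 1 adjusted for transcript length and in eBayes without trend. Over all genes 2943, 5192, 2700, 5635, 3544 and 3159 were called higher in these settings. Members called lower (15) were 4 with no filter, 2 with no scaling, 4 under quantile normalization, 2 rescaled without the members, 31 adjusted for transcript length and 5 in eBayes without trend. Over all genes 2097, 1508, 3067, 1250, 2646 and 2121 were called lower in these settings. The median was 0.051 with no scaling, 0.11 under quantile normalization, -0.044 rescaled without mitochondrially encoded genes and SETD2, 0.083 rescaled without the members, -0.14 adjusted for transcript length, and -0.090 (without SETD2 C replicate 1) to -0.049 (without SETD2 C replicate 2) when a library was left out. PDCD2, a chaperone of RPS2, was called lower as reported (-0.16), turned to 0.0013 rescaled without the members and lost its call in 9 further settings. The members' summed share was 25.1% in WT, 23.7% and 34.9% in KO of the first and second batch, 32.7% in SETD2 FL and 32.2% in SETD2 C without mitochondrially encoded genes and SETD2, and with the named pseudogenes 21.004% in WT and 21.5% and 33.1% in KO.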

Other observations

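RPL22L1 passed the test between WT and the libraries labelled KO as reported (limma, log2 fold change 1.11), a call lost without the filter (limma with Benjamini-Hochberg adjustment, adjusted p = 0.0527). Without WT replicate 2 the members' median was 0.21. Under quantile normalization 3 members were called lower, against 203 of all 14746 genes. In the second batch RPL10 had the most negative value of the 83 members with SETD2 C against KO (-0.60) and kept its call in every alternative, with values from -0.66 to -0.29.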
